A study of Homo sapiens with 12 samples.

Results

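Cyclosporine A (CSA) and voclosporin (VCS), the calcineurin inhibitors of the cyclosporine class in this series, were pooled here and compared with solvent. The pair makes up 6 of the 12 RNA-seq libraries, 3 of podocytes given CSA and 3 of podocytes given VCS, each at 100 nM for 24 h. Its libraries were taken by the treatment in the sample labels, and no measured value entered that rule. The comparison group is 3 libraries of cells given DMSO for the same time. A further 3 libraries of cells given tacrolimus (TAC), also at 100 nM for 24 h, served to show where the pair differed from a calcineurin inhibitor of another structure. All libraries came from 1 conditionally immortalized line of human podocytes, the filtration cells of the kidney glomerulus. A T antigen of SV40 that works only at low temperature lets the line divide, and before treatment the cells were kept for days at the higher temperature, where they differentiate. Within each group the labels number the samples 1 to 3 and do not say whether these were separate cultures, so p-values measure only the spread between these samples, which may be technical.

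Calcineurin is a calcium-activated phosphatase that removes phosphate from NFAT transcription factors, which then enter the nucleus. CSA is a cyclic peptide that blocks calcineurin once it is bound to a cyclophilin, and VCS is an analog of it with a changed side chain on an amino acid of the ring. TAC is a macrolide and acts through FKBP immunophilins instead of cyclophilins. In podocytes calcineurin is also known for acting on synaptopodin, an actin-binding protein of the foot processes.

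The libraries held 28808213 to 36077072 counts each. Podocyte genes were present in part: the 30 genes of the podocyte list summed to between 7540 and 8810 CPM in every library (CPM are counts scaled to the effective library size), led by actin-binding and cytoskeletal genes, whereas the slit diaphragm gene NPHS1 stayed between 0.0303 and 0.35 CPM, too low to be tested. The share of mitochondrial counts ran from 5.82% to 13.4%, and in each group the sample numbered 3 had the highest share. CSA replicate 3 also stood apart from the other 5 libraries of the pair in ribosomal protein genes, whose median log2 difference from the DMSO library of the same number was -0.38 there and between 0.00 and 0.14 in the others.

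Most differences between the pooled pair and DMSO were small, and no gene passed the threshold. Every gene was tested with edgeR's quasi-likelihood test, in a fit of all 12 libraries with the replicate number as a block, at a Benjamini-Hochberg adjusted p under 0.05. In that fit 0 of 19784 genes (0%) passed, and the smallest adjusted p was 0.0506. At an unadjusted p under 0.05 there were 2612 genes (13.2%), of which 1347 (6.81%) were higher and 1265 (6.39%) lower in the pair. The 95% interval of the difference lay within 1.5-fold in either direction for 12870 genes (65.1%). DESeq2 on the same samples called 86 genes, 43 in each direction. The unadjusted counts fell to 440 higher and 500 lower without DMSO replicate 2, and the higher count fell to 751 without DMSO replicate 3 and to 702 without VCS replicate 2. Without CSA replicate 3, 8 genes passed, and without the 4 libraries numbered 3, 19 passed.

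A plainer view of the sharing is the number of genes whose 6 pair libraries all lay beyond the 3 DMSO libraries. There were 167 such genes above DMSO (0.844% of those tested) and 208 below it (1.05%). Their differences were modest: the median size was 0.29 log2 units among the higher genes and 0.46 among the lower, 13 and 23 of them differed by more than 2-fold, and 44 and 99 had a mean level under 1 log2 CPM. A looser rule, in which each pair library differed the same way from the DMSO library of its own number, took in 7.55% of genes as higher and 7.35% as lower. None of the 167 and 208 genes passed the test between CSA and VCS, where 0.0303% of all tested genes did. The rule took genes on the same side of DMSO under both drugs, so this is no test of the sharing. In 122 of the 167 and 108 of the 208, the 95% interval of that difference lay within 1.5-fold either way, against 64.5% of all genes. Without DMSO replicate 1 the counts rose to 937 and 953, and without the 4 libraries numbered 3 to 1309 and 1576. Leaving out DMSO replicate 2, DMSO replicate 3, CSA replicate 2 or VCS replicate 3 gave 311 to 509 higher and 333 to 563 lower genes, leaving out VCS replicate 1 gave 258 higher, and leaving out CSA replicate 3 gave 342 lower.

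Among the gene lists, that of the ATF4 pathway had the largest share of members higher in the pair at an unadjusted p under 0.05. ATF4 is a transcription factor of the integrated stress response that raises amino acid import, serine synthesis and the charging of transfer RNAs. Of 49 tested genes on the list, 43 lay above DMSO in the pair, where 49.1% of all tested genes did. The list's median log2 difference was 0.22 in the pair, 0.23 in CSA and 0.17 in VCS, against -0.004 over all tested genes. An unadjusted p under 0.05 was reached by 31 genes in the higher direction and 1 in the lower, against 6.81% and 6.39% of all genes, and none passed after adjustment in edgeR while 10 passed in DESeq2. Each of the 6 pair libraries had a list median above its DMSO counterpart, from 0.12 to 0.27 log2 units. The count of 31 fell to 20 without DMSO replicate 2 and to 20 without the replicate block, and it was 34 without CSA replicate 3, 30 without the 4 libraries numbered 3 and between 23 and 32 under the other settings tried.

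By role, the enzymes that load amino acids onto transfer RNA were the most even. All 12 tested synthetases had higher means in the pair, by 0.11 to 0.36 log2 units, and 11 reached an unadjusted p under 0.05. All 6 enzymes of serine and one-carbon metabolism did so, with differences of 0.18 to 0.34, and so did 6 of 8 amino acid transporters. The transcription factors of the list behaved otherwise: ATF4 mRNA itself differed by 0.09 (edgeR unadjusted p = 0.29), DDIT3 by 0.07, and CEBPB by -0.25 (unadjusted p = 0.0357). These role groups were drawn up after the values were seen.

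SLC7A11, the cystine importer that exchanges cystine for glutamate, was at 8.0, 11.4 and 7.48 CPM in the DMSO libraries. It was at 12.6, 14.7 and 12.8 CPM in CSA and at 12.6, 16.2 and 11.7 CPM in VCS. Every library of the pair thus exceeded every DMSO library, and the drug groups overlapped one another. The difference was 0.59 ± 0.10 log2 units (SE), or 1.51-fold, with an edgeR adjusted p of 0.161, and CSA and VCS differed by -0.003 with a 95% interval from -0.25 to 0.24. MARS1, the methionine tRNA synthetase, was at 137, 128 and 129 CPM in DMSO, at 163, 157 and 168 CPM in CSA and at 154, 168 and 145 CPM in VCS. Here too the libraries did not overlap, with a difference of 0.28 ± 0.06 log2 units and an edgeR adjusted p of 0.288. WARS1, which charges tryptophan, was at 66.7, 68.2 and 54.3 CPM in DMSO and between 62.7 and 93.2 CPM (median 81.8) in the pair. Only VCS replicate 3 fell within the DMSO range, and each pair library exceeded the DMSO library of its own number. PHGDH, the entry enzyme of serine synthesis, was at 49.0, 58.8 and 52.9 CPM in DMSO and between 53.4 and 73.2 CPM (median 66.9) in the pair, where only VCS replicate 1 fell within the DMSO range. In the GENCODE annotation MARS1 overlaps DDIT3 and ARHGAP9, and SLC7A11 overlaps SLC7A11-AS1, each on the opposite strand. The sources used here do not say whether counting used strand, and without it reads of such partners cannot be told apart.

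**Figure D1:**
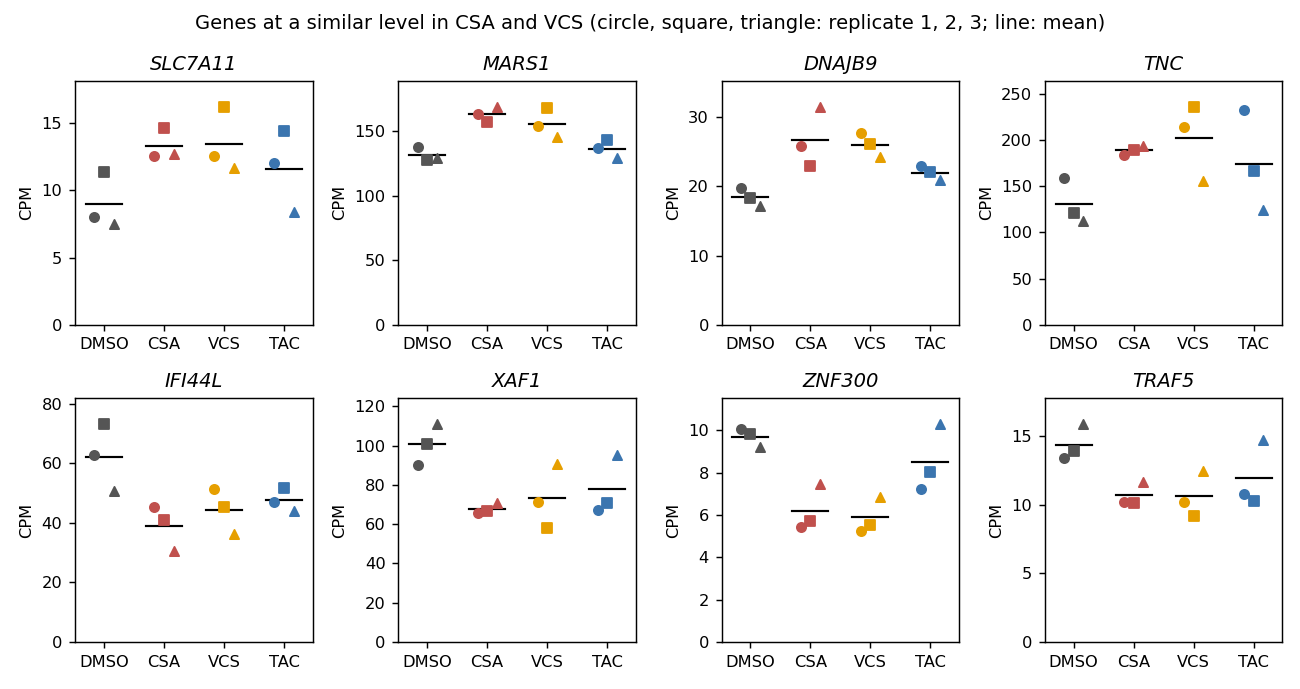
CPM (y axes, linear from 0) of 8 genes in the DMSO, CSA, VCS and TAC libraries. Each symbol is 1 library (circle, square and triangle for replicates 1, 2 and 3) and each line the mean of 3. SLC7A11, MARS1 and DNAJB9 sit higher in all CSA and VCS libraries than in any DMSO library, ZNF300 and TRAF5 lower, while TNC, IFI44L and XAF1 overlap in at least 1 library.

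The promoters of the list were searched for the sequence through which ATF4 is known to act, as a description with no test. The motif searched was TGATGNAAN, a core form of the CEBP-ATF response element, on both strands of the 300 bases that run from 250 before to 50 after a gene's start. It was found in 11 of the 40 list members with a promoter sequence (27.5%), in 1.94% of the 12917 tested genes with one and in 3.67% of all 27305 promoters of the table. MARS1 had 1 match and so did HERPUD1, a gene of the endoplasmic reticulum (ER) on another list. Their promoters, from RefSeq on GRCh38.p14, are shown because both genes were higher in the pair and they place the same letters at different distances from the start, with the match in capitals. The MARS1 window is chr12:57487818-57488117, plus strand, and the HERPUD1 window is chr16:56931892-56932191, plus strand.
MARS1: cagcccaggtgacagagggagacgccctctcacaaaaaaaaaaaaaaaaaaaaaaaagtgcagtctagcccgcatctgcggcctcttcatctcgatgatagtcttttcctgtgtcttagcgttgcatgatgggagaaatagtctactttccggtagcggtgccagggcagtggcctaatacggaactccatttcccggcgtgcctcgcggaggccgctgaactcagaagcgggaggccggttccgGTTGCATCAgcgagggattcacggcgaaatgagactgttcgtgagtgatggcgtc
HERPUD1: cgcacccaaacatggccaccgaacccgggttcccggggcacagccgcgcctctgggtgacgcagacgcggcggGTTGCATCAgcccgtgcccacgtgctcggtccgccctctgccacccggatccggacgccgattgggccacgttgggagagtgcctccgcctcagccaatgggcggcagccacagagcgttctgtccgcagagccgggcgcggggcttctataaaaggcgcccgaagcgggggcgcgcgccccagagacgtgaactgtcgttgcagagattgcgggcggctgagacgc
The match lies on the opposite strand in both, beginning 5 bases before the start in MARS1 and 177 bases before it in HERPUD1. No match was found in these windows of WARS1, PHGDH, SESN2 or ADM2, the last of which is on none of the lists. A match describes letters only and is no measurement of binding. The gene lists were drawn up by pathway, so such shares describe their members and say nothing about these libraries. SLC7A11 was not among the sequences.

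Most genes of ER protein folding had slightly higher means in the pair. When unfolded proteins gather in the ER, cells raise chaperones and the machinery that removes faulty proteins. Of 41 tested genes, 31 lay above DMSO, with a median of 0.13 log2 units in the pair, 0.15 in CSA and 0.08 in VCS. Of the 41, 9 had an unadjusted p under 0.05 in the higher direction and 1 in the lower, and none passed. Over all tested genes the shares were 6.81% and 6.39%. The 9 became 4 without DMSO replicate 2, 3 without DMSO replicate 3, 14 without CSA replicate 1, 15 without CSA replicate 2 and 5 without the replicate block. DNAJB9, a co-chaperone of the ER, was at 19.8, 18.2 and 17.1 CPM in DMSO. Its CSA libraries were at 25.8, 22.9 and 31.4 CPM and its VCS libraries at 27.8, 26.1 and 24.2 CPM, all above the DMSO range. The difference was 0.52 ± 0.09 log2 units with an edgeR adjusted p of 0.183, which became 0.0217 without CSA replicate 3. HERPUD1, which helps recruit the degradation machinery, was at 56.0, 46.5 and 52.6 CPM in DMSO and between 53.4 and 77.0 CPM (median 60.6) in the pair. SEL1L, an adaptor of the ER ubiquitin ligase, was at 97.8, 67.7 and 71.3 CPM in DMSO and between 86.5 and 123 CPM (median 110) in the pair. Both overlapped DMSO while each pair library lay above its own number's DMSO library. The list's median in CSA replicate 3 was 0.36, the highest of the 6, and without that library the median over the pair was 0.06. The ER stress response element, searched on both strands as CCAAT and then CCACG with NNNNNNNNN between them, was in 7 of 37 promoters of the list (18.9%), in 0.124% of those of tested genes and in 0.0806% of all, and no match was found in the windows of DNAJB9 or SEL1L.

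The list of interferon-stimulated genes had the largest share of members lower in the pair at an unadjusted p under 0.05. Interferons act through transcription factors such as STAT2 and IRF9 to switch on a set of antiviral genes, and cells also hold these genes at a resting level. Of 49 tested genes, 44 lay below DMSO in the pair, with a median of -0.21 log2 units, and the medians were -0.22 in CSA and -0.14 in VCS. An unadjusted p under 0.05 in the lower direction was reached by 28 genes, and in the higher direction by 0. Over all tested genes the shares were 6.39% and 6.81%. None passed after adjustment in edgeR, and 8 passed in DESeq2. The list median lay below 0 in each of the 6 pair libraries, from -0.39 to -0.13. The count of 28 fell to 13 without DMSO replicate 2 and to 10 without the replicate block, and it was 28 both without CSA replicate 3 and without the 4 libraries numbered 3. None of the 49 genes lay lower in all 6 pair libraries than in every DMSO library, where 1.05% of all tested genes did.

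Among the antiviral effectors, 5 of 6 oligoadenylate synthetase and MX genes and 4 of 7 IFIT and IFITM genes had an unadjusted p under 0.05, all lower. Of 7 sensors and transcription factors, 5 had an unadjusted p under 0.05, all lower: STAT2 differed by -0.27 and IRF9 by -0.18. None of the 4 antigen-processing genes reached an unadjusted p under 0.05. These role groups too were drawn up after the values were seen. IFI44L, an interferon-induced gene, was at 62.9, 73.1 and 50.8 CPM in DMSO. It was at 45.5, 41.0 and 30.4 CPM in CSA and at 51.3, 45.4 and 36.1 CPM in VCS, so that only VCS replicate 1 reached the DMSO range. The difference was -0.59 ± 0.08 log2 units with an edgeR adjusted p of 0.0828, which was 0.0377 with robust estimation and 0.0217 without CSA replicate 3. XAF1, a gene tied to apoptosis, was at 90.3, 101 and 111 CPM in DMSO and between 58.1 and 90.5 CPM (median 68.9) in the pair, overlapping only through VCS replicate 3. IFITM1, a membrane protein that hinders viral entry, was at 35.9, 38.3 and 30.3 CPM in DMSO and between 20.1 and 31.5 CPM (median 27.4) in the pair, overlapping through VCS replicate 1. Its near copies IFITM2 and IFITM3 make its share of reads uncertain.

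DDX60L, SLFN13, TRAF5, TRIM38 and NLRC5 are on none of the lists and were named because all 6 pair libraries lay below every DMSO library. DDX60L, a helicase-like gene induced by interferon, was at 74.8, 87.3 and 80.0 CPM in DMSO and between 57.7 and 68.5 CPM (median 66.1) in the pair. SLFN13, a ribonuclease that cleaves transfer RNA, was at 33.5, 37.7 and 41.6 CPM in DMSO and between 23.3 and 33.4 CPM (median 27.0) in the pair, so the gap was narrow. TRAF5, an adaptor of tumour necrosis factor receptors, was at 13.4, 13.9 and 15.9 CPM in DMSO and between 9.18 and 12.5 CPM (median 10.2) in the pair. TRIM38 differed by -0.26 and NLRC5, a regulator of antigen presentation genes, by -0.24 log2 units. The edgeR adjusted p-values of these 5 genes ran from 0.161 to 0.291, and none passed.

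The interferon-stimulated response element, searched on both strands of the same windows as GAAA, any pair of bases and GAAA again, was in 23 of 40 promoters of the interferon list (57.5%), in 2.92% of those of tested genes and in 3.65% of all. That list too was drawn up by pathway, so its share says nothing about these libraries. IFI44L, IFITM1 and DDX60L each had 2 matches, shown in capitals, and their RefSeq promoters on GRCh38.p14 are printed because the genes were lower under both drugs and carry more than 1 copy of the element. The windows are chr1:78620198-78620497, plus strand for IFI44L, chr11:313790-314089, plus strand for IFITM1, and chr4:168480443-168480742, minus strand for DDX60L.
IFI44L: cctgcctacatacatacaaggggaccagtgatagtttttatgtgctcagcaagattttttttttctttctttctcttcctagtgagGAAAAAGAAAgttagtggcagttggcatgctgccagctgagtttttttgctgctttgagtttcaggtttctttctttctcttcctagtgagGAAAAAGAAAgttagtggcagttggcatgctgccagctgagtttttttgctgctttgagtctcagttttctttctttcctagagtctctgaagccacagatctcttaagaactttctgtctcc
IFITM1: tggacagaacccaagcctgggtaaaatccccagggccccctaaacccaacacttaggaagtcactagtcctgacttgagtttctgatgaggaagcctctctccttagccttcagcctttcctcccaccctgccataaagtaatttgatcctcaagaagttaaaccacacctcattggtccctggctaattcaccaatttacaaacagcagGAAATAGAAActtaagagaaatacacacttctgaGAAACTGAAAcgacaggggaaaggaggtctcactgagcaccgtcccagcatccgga
DDX60L: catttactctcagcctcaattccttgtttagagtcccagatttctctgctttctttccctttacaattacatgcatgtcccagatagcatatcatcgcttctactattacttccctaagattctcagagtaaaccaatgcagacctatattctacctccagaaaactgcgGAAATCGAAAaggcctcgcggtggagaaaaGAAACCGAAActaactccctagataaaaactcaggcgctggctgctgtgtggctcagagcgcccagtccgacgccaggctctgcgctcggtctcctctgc
The matches begin 164 and 73 bases before the start in IFI44L, 40 and 6 before it in IFITM1, and 80 and 50 before it in DDX60L. In IFI44L both copies read the same 10 letters. No match was found in these windows of XAF1 or TRIM38. SLFN13 and NLRC5 were not among the sequences.

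Other genes named for lying apart from DMSO had no list of their own. Higher were ZNF20 (0.95 log2 units), CAMKK1 (0.35), a kinase switched on by calmodulin, ST6GALNAC4 (0.38), a sialyltransferase, and GRB10 (0.25), an adaptor that dampens insulin signalling. The readthrough genes NDUFC2-KCTD14 (0.98) and ABHD14A-ACY1 (0.74) share exons with the genes they join, so their counts are uncertain. Lower were ZNF300, ZNF891 (-0.54), ZNF222 (-0.49), PAXBP1-AS1 (-0.46), which is antisense to PAXBP1, and TUBB1 (-0.58). ZNF300, a zinc finger protein, was at 10.1, 9.84 and 9.20 CPM in DMSO, at 5.44, 5.70 and 7.45 CPM in CSA and at 5.25, 5.54 and 6.87 CPM in VCS. All 6 pair libraries lay below DMSO, by -0.70 ± 0.11 log2 units, with an edgeR adjusted p of 0.161 that was 0.0299 without DMSO replicate 3 and 0.0438 without CSA replicate 3. Of these genes only ZNF300 passed in any setting with a library left out.

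Most adhesion and matrix genes had higher means in the pair, unevenly across libraries. Podocytes hold to the basement membrane through integrins, which filamins, talins and vinculin tie to actin. Of 38 tested genes of integrins and focal adhesions, 32 lay above DMSO, with a median of 0.18 log2 units in the pair and 0.16 in each of the drugs. An unadjusted p under 0.05 was reached by 16, all higher, against 6.81% of all tested genes in that direction. That count fell to 3 without DMSO replicate 2, to 4 without DMSO replicate 3, to 4 without VCS replicate 2, to 10 without VCS replicate 1 and to 1 without the replicate block. All 8 filamin, talin, vinculin and tensin genes were among the 16, with differences of 0.26 to 0.42, as were 6 of 14 integrin subunits, but none of 14 adaptors and kinases. These role groups too were drawn up after the values were seen. FLNC, a filamin, was at 778, 541 and 528 CPM in DMSO and between 558 and 949 CPM (median 854) in the pair.

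The matrix lists were highest in CSA replicate 3. The 28 basement membrane genes had a median of 0.19 log2 units with 22 above DMSO, and the 50 collagen and interstitial genes a median of 0.12 with 39 above. Over all tested genes, 6.81% were higher at an unadjusted p under 0.05. An unadjusted p under 0.05 was reached by 7 of the 28, a count that was 2 without DMSO replicate 2, DMSO replicate 3 or VCS replicate 2, 4 without VCS replicate 1, TAC replicate 1 or TAC replicate 2, 16 without CSA replicate 1, 11 without CSA replicate 2, 12 without VCS replicate 3 and 3 without the replicate block. It was reached by 10 of the 50, a count that was 1 without DMSO replicate 2 or DMSO replicate 3, 18 without CSA replicate 1, 5 without VCS replicate 1 or TAC replicate 1, 4 without VCS replicate 2, 6 without TAC replicate 2 and 3 without the replicate block. For the basement membrane the library medians ran from -0.07 in CSA replicate 1 to 0.52 in CSA replicate 3, and without CSA replicate 3 the pooled medians were 0.11 and 0.05. TNC, a matrix glycoprotein of tissue repair, was at 159, 121 and 112 CPM in DMSO, at 184, 190 and 194 CPM in CSA and at 214, 236 and 155 CPM in VCS. Only VCS replicate 3 fell within the DMSO range, and the difference was 0.59 ± 0.13 log2 units (edgeR adjusted p = 0.288). LAMB3, a laminin chain, differed by 0.38, and COL4A2, a chain of type IV collagen, by 0.30. Synaptopodin (SYNPO) was at 52.3, 41.9 and 44.8 CPM in DMSO and between 48.3 and 67.3 CPM (median 59.0) in the pair, above its own number's DMSO library in 6 of 6 cases. Its difference of 0.34 ± 0.10 log2 units had an edgeR adjusted p of 0.315. The summed markers of fibroblasts and mesangial cells, 526 to 631 CPM in DMSO, were 556 to 788 CPM in CSA and 583 to 726 CPM in VCS, none of the list's 10 genes being at 0 throughout, and their part in the matrix values was not tested.

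**Figure D2:**
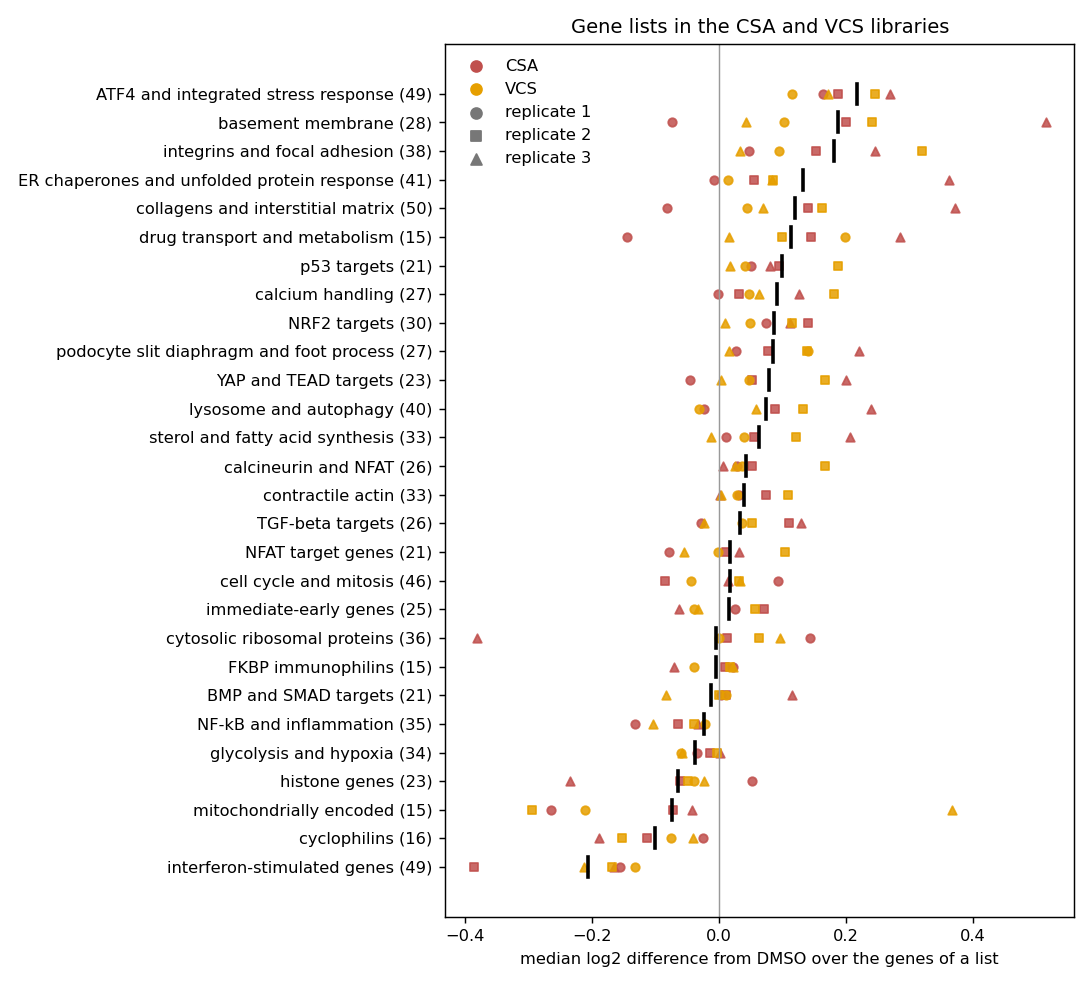
Median log2 difference from DMSO (x axis) over the tested genes of each list (rows, with the number of genes). Points are single CSA and VCS libraries against the DMSO library of the same number and black bars are the medians of the fitted pair difference. The ATF4 list is above 0 in all 6 libraries (0.12 to 0.27) and the interferon list below 0 in all 6 (-0.39 to -0.13), while the basement membrane list spreads from -0.07 to 0.52.

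The molecular targets of the drugs differed little in their own mRNA. PPIA, which encodes the cyclophilin that binds CSA, was at 1088, 1190 and 1171 CPM in DMSO, at 1084, 1107 and 864 CPM in CSA and at 1056, 1092 and 1167 CPM in VCS. The pair lay below DMSO by -0.12 ± 0.09 log2 units (edgeR adjusted p = 0.568), and by -0.04 without CSA replicate 3. PPIB, the ER cyclophilin, differed by 0.00, and PPIF, the mitochondrial one, by 0.03. Over 16 cyclophilin genes the median was -0.10, with 4 above DMSO and 3 with an unadjusted p under 0.05, all lower: NKTR (-0.35), PPIL3 (-0.25) and PPWD1 (-0.20). Over all tested genes, 6.39% were lower at that threshold. Of the calcineurin subunits, PPP3CA was at 59.8, 58.6 and 59.5 CPM in DMSO and between 61.2 and 68.5 CPM (median 64.2) in the pair. It lay above DMSO in all 6 libraries, by 0.12 ± 0.05 log2 units, with an edgeR adjusted p of 0.362. PPP3CB differed by 0.09 and PPP3R1 by 0.04.

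NFAT targets showed no common direction. RCAN1, a feedback inhibitor of calcineurin that NFAT induces, was at 168, 152 and 159 CPM in DMSO and between 151 and 182 CPM (median 156) in the pair. The pooled difference was 0.02 ± 0.06 log2 units, and its sign turned when DMSO replicate 2 or VCS replicate 2 was left out. Of 21 tested NFAT targets, 11 lay above DMSO, and 3 had an unadjusted p under 0.05 in each direction. Over all tested genes 6.81% did as higher and 6.39% as lower. The median of the NFAT targets was 0.02, or -0.06 without the 4 libraries numbered 3. CXCL8, a chemokine that draws neutrophils, was at 185, 116 and 102 CPM in DMSO, at 137, 71.8 and 85.4 CPM in CSA and at 156, 83.6 and 71.4 CPM in VCS. The ranges overlapped because the samples numbered 1 were high in all groups, but each pair library lay below its own number's DMSO library. Its difference was -0.43 ± 0.10 log2 units (edgeR adjusted p = 0.288, and 0.0217 without CSA replicate 3). IL6 differed by -0.22 and CXCL1, which is not on the NFAT list, by -0.34 in the same way, 6 of 6 libraries lower. CXCL8 and IL6 are lower examples from a list with 3 genes in each direction, and do not stand for it.

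Direct comparison of CSA with VCS, the only single compounds tested against each other here, found few differences. In edgeR 6 of 19784 genes (0.0303%) passed, 1 higher (0.00505%) and 5 lower (0.0253%) in CSA. At an unadjusted p under 0.05 there were 1244 genes (6.29%), 3.5% higher and 2.79% lower. For 12751 genes (64.5%) the 95% interval of the difference lay within 1.5-fold in either direction, and for 15571 (78.7%) within 2-fold. That held within 1.5-fold for 48 of 49 ATF4 genes, 46 of 49 interferon genes, 41 of 41 ER genes and 37 of 38 adhesion genes. A 1.5-fold margin is wider than the median differences of these lists from DMSO (0.22, -0.21, 0.13 and 0.18 log2 units). A gene could thus differ from DMSO by that much under 1 drug alone and still be counted, so these counts do not show sharing. For the remaining genes the data do not limit the difference to 1.5-fold. At an unadjusted p under 0.05, 5 ATF4 genes were higher and 0 lower in CSA than in VCS. Of the interferon genes, 0 were higher and 6 lower, and none of either list passed. IFITM1 differed by -0.28 log2 units (95% interval -0.453 to -0.115), and ADM2, which is on neither list, by 0.30 (0.071 to 0.527). Neither gene passed. The number of genes that passed, 6, became 3 without CSA replicate 2, 3 without TAC replicate 2, 1 without VCS replicate 2, 13 without VCS replicate 1 and 15 without the 4 libraries numbered 3.

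Of the 6 genes, 5 are known from other epithelia, at low levels here, and 4 of these are among the 12 tested members of the airway and basal epithelium list. SFTPA1, a surfactant protein of the lung, was at 4.26, 3.05 and 3.86 CPM in DMSO and 4.74, 3.18 and 2.11 CPM in VCS, but at 0.265, 0.223 and 0.116 CPM in CSA. The TAC libraries, at 0.363, 0.119 and 0.0307 CPM, sat with CSA. The difference between CSA and VCS was -4.02 ± 0.38 log2 units (95% interval -4.85 to -3.20, edgeR adjusted p = 0.00362) and passed with each of the 12 libraries left out. The low pooled value of this gene, -2.24 log2 units with the smallest adjusted p of the whole pooled comparison, thus came from CSA and was not shared by VCS. KRT5 and KRT14, keratins of basal epithelium, followed the same split with -2.79 and -3.45 log2 units (edgeR adjusted p = 0.00463 and 0.0226). So did SFTPA2 with -2.55 (edgeR adjusted p = 0.00811) and LTF, a secreted iron-binding protein named after its value was seen, with -1.84 (adjusted p = 0.0355). Reads of SFTPA1 and SFTPA2, near copies of each other, cannot be fully told apart. KRT5 lost its call without VCS replicate 2, SFTPA2 without that library or CSA replicate 1, KRT14 kept its call only without DMSO replicate 1, DMSO replicate 2, CSA replicate 3, VCS replicate 3 or TAC replicate 3, and LTF only without DMSO replicate 2 or VCS replicate 3. Without the replicate block SFTPA1 passed (edgeR adjusted p = 0.0217) and KRT5 (0.189), SFTPA2 (0.189), KRT14 (0.202) and LTF (0.752) did not. With only CSA, VCS and DMSO fitted, SFTPA2 (edgeR adjusted p = 0.0505), KRT14 (0.0806) and LTF (0.0806) did not pass.

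The 13 airway and basal epithelium markers together summed to 29 to 34.1 CPM in CSA and 29.1 to 34.6 CPM in TAC, against 43.1 to 68.2 CPM in VCS and 32.8 to 55.3 CPM in DMSO. The other 8 tested members did not pass: SFTPB differed between CSA and VCS by 0.38, KRT15 by 0.27, MUC5AC by -0.11 and SCGB1A1 by -0.61 log2 units, and SFTPC, TP63, MUC5B and BPIFB1 by -1.96 to -1.01. SFTPB was at 16.5, 15.5 and 9.56 CPM in CSA and at 10.2, 6.95 and 7.35 CPM in DMSO, so not every member was lower in CSA. MUC5B was at 4.35, 4.24 and 4.35 CPM in CSA, above its 2.01, 2.74 and 2.14 CPM in DMSO. In VCS it was at 2.37, 12.6 and 13.8 CPM, and the high VCS libraries also enter the sums above. None of the 13 was at 0 in all libraries, and their part in these 5 differences was not tested. The gene higher in CSA was the processed pseudogene ENSG00000196656 on chromosome 4, which had 304, 235 and 195 counts in CSA and 63, 244 and 409 in DMSO but 0 in all VCS libraries and 0, 1 and 0 in TAC. With a floor of 3 counts over the VCS libraries it was at least 226-fold higher in CSA. This bound covers counting error only, not reads that the pseudogene may share with its parent gene. The call of the pseudogene was lost with robust estimation (edgeR adjusted p = 0.745), with only CSA, VCS and DMSO fitted (0.0806) and without CSA replicate 2, VCS replicate 2, VCS replicate 3, TAC replicate 1 or TAC replicate 2. The histone gene H2BC26, of a family with near-identical copies, was at 0.706, 1.11 and 0.985 CPM in CSA and 0.032, 0.0303 and 0.107 CPM in VCS, with an edgeR adjusted p of 0.0575 that was 0.0437 without DMSO replicate 2. Among better expressed genes the smallest p-values in the higher direction belonged to TGFB1 (0.33, 95% interval 0.20 to 0.46, edgeR adjusted p = 0.208), FAM156A (1.5) and SCARF2 (0.32), none of which passed.

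**Figure D3:**
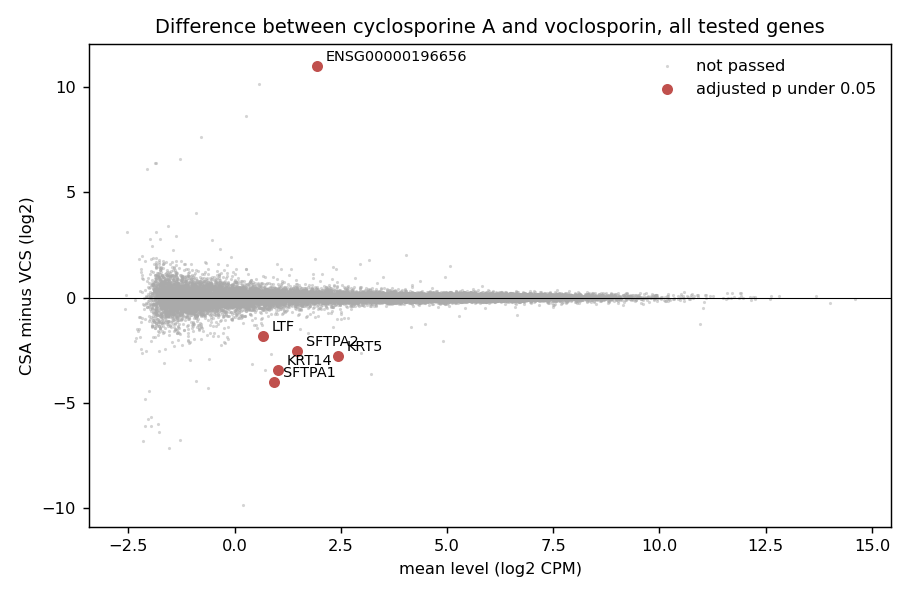
Log2 difference between CSA and VCS (y axis) against mean level in log2 CPM (x axis) for all tested genes, with the 6 that passed in edgeR in red. The points narrow around 0 as the level rises, and the 5 genes lower in CSA (-4.02 to -1.84) have low mean levels.

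**Figure D4:**
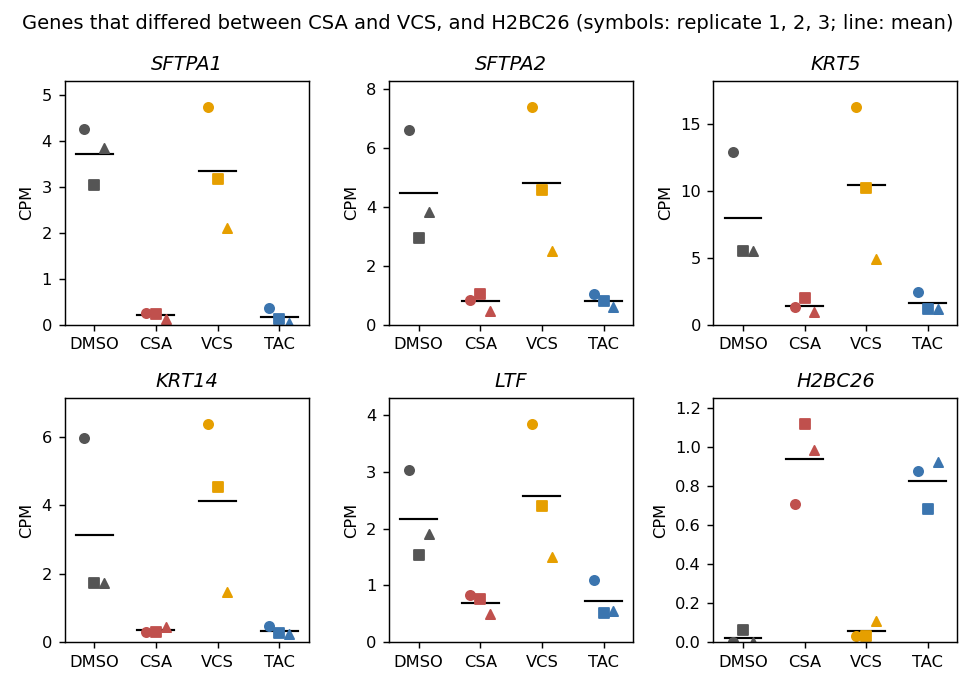
CPM (y axes, linear from 0) of 5 genes that passed between CSA and VCS and of H2BC26, which did not. Symbols are libraries by replicate number and lines are means of 3. For the first 5 genes VCS sits with DMSO and CSA with TAC, and for H2BC26 CSA and TAC are the higher groups.

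Between the pair and TAC, in edgeR, 57 genes (0.288%) passed, 21 higher (0.106%) and 36 lower (0.182%) in the pair. At an unadjusted p under 0.05 there were 2726 genes (13.8%), 7.64% higher and 6.14% lower. Leaving out CSA replicate 3 raised the number that passed from 57 to 264. It was 30, 36 and 32 without DMSO replicates 1, 2 and 3, 30 without CSA replicate 2, 29 and 27 without VCS replicates 1 and 2, and 23, 10 and 15 without TAC replicates 1, 2 and 3.

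Targets of bone morphogenetic protein (BMP) signalling were among them. BMP receptors phosphorylate SMAD proteins, which switch on the ID genes, inhibitors of differentiation factors, along with inhibitory SMADs. Of 21 tested genes 8 passed as lower in the pair than in TAC, namely ID1, ID2, ID3, ID4, SMAD6, SMAD7, SMAD9 and ATOH8, and 1 passed as higher. Over all tested genes 0.182% passed as lower and 0.106% as higher. The count of 8 became 5 without TAC replicate 2 and 5 without the replicate block. The list's median was -0.01 log2 units in the pair against DMSO and 0.37 in TAC against DMSO, comparisons that share the DMSO libraries. ID1 was at 43.4, 42.3 and 33.1 CPM in DMSO and between 27.5 and 48.3 CPM (median 39.6) in the pair, but at 93.2, 93.5 and 86.7 CPM in TAC. Its pair libraries overlapped DMSO and lay far below TAC, by -1.25 ± 0.09 log2 units (edgeR adjusted p = 1.01e-04). ID3 was at 96.9, 87.9 and 95.3 CPM in DMSO, between 78.0 and 87.5 CPM (median 83.8) in the pair, and at 131, 134 and 153 CPM in TAC. All 6 pair libraries lay below both other groups, by -0.17 ± 0.07 log2 units against DMSO (edgeR adjusted p = 0.344) and -0.74 ± 0.07 against TAC (adjusted p = 0.000304). ATOH8, a BMP-induced transcription factor, differed from TAC by -0.96 (edgeR adjusted p = 1.01e-04).

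GDF5, a BMP family ligand, went the other way. It was at 110, 103 and 102 CPM in DMSO, at 140, 124 and 161 CPM in CSA, at 128, 150 and 123 CPM in VCS, and at 80.7, 80.8 and 65.4 CPM in TAC. Every pair library lay above every DMSO library and every TAC library below, with differences of 0.39 ± 0.10 log2 units from DMSO (edgeR adjusted p = 0.291) and 0.87 ± 0.10 from TAC (adjusted p = 0.0037). ID1, ATOH8, ID3 and GDF5, as well as CGB8 (-1.12), whose family has near-identical copies, and SAMD11 (-1.73), passed against TAC with each of the 12 libraries left out. Without the replicate block CGB8 did not pass (edgeR adjusted p = 0.0729) and the other 5 did.

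ADM2, a peptide hormone of the calcitonin family that is on none of the lists, joined the shared direction and also differed from TAC. It was at 11.5, 10.9 and 11.1 CPM in DMSO, at 14.6, 18.4 and 19.1 CPM in CSA, at 14.3, 13.2 and 14.8 CPM in VCS and at 10.4, 11.4 and 9.83 CPM in TAC. The pair was above both, by 0.48 ± 0.09 log2 units against DMSO (edgeR adjusted p = 0.24) and 0.57 ± 0.09 against TAC (adjusted p = 0.0302), a call kept without CSA replicate 3, VCS replicate 2 or CSA replicate 1 only, and lost without the replicate block (0.133). Of the ATF4 list 40 of 49 genes lay above TAC, with a median of 0.12 log2 units, and 19 had an unadjusted p under 0.05, all higher, against 7.64% of all genes. None passed, and 19 became 11 without VCS replicate 2, 9 without TAC replicate 2, 9 without TAC replicate 3 and 8 without the replicate block. The interferon list had a median of -0.20 in TAC against DMSO and of -0.04 between the pair and TAC. In the latter 3 genes were higher and 2 lower at an unadjusted p under 0.05, against 7.64% and 6.14% of all genes.

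Most inflammatory genes had higher means in the pair than in TAC. Of 35 tested NF-kB and inflammation genes, 30 lay above TAC. An unadjusted p under 0.05 was reached by 19, all higher (7 without the replicate block), against 7.64% of all genes. The 4 that passed, where 0.106% of all genes passed as higher, were VCAM1, RELB, CCL2 and IL1B. The list's median was -0.02 log2 units in the pair against DMSO and -0.30 in TAC against DMSO, comparisons that share the DMSO libraries. In the pair against DMSO, 1 gene of the list was higher and 8 lower at an unadjusted p under 0.05. In that comparison 6.81% of all tested genes were higher and 6.39% lower. VCAM1, an adhesion receptor for leukocytes, was at 15.9, 15.6 and 19.2 CPM in DMSO, between 16.8 and 29.7 CPM (median 21.8) in the pair and at 12.8, 10.1 and 11.1 CPM in TAC. The pair lay wholly above TAC, by 0.92 ± 0.14 log2 units (edgeR adjusted p = 0.0167), a call lost without VCS replicate 1, VCS replicate 2, TAC replicate 2 or TAC replicate 3. Further genes higher than in TAC were PLAT, tissue plasminogen activator (0.53, edgeR adjusted p = 0.00932, lost without any TAC library), SHISA2 (0.40, adjusted p = 0.0167) and G0S2 (0.38, adjusted p = 0.0167). SHISA2 lost its call without VCS replicate 1 or 2 or any TAC library, and G0S2 without CSA replicate 2, VCS replicate 1 or any TAC library. Without the replicate block none of VCAM1 (edgeR adjusted p = 0.133), PLAT (0.399), SHISA2 (0.687) and G0S2 (0.687) passed. Lysosome genes lay above TAC in 37 of 40 cases, 18 with an unadjusted p under 0.05 (11 without VCS replicate 2, 5 without TAC replicate 3, 8 without the replicate block), and cell cycle genes below it, 19 of 46 with an unadjusted p under 0.05 (10 without TAC replicate 1, 12 without the replicate block), of which CENPE and KIF20A passed. No lysosome gene passed. Over all tested genes, 7.64% were higher and 6.14% lower in the pair than in TAC at an unadjusted p under 0.05. After adjustment 0.106% passed as higher and 0.182% as lower.

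**Figure D5:**
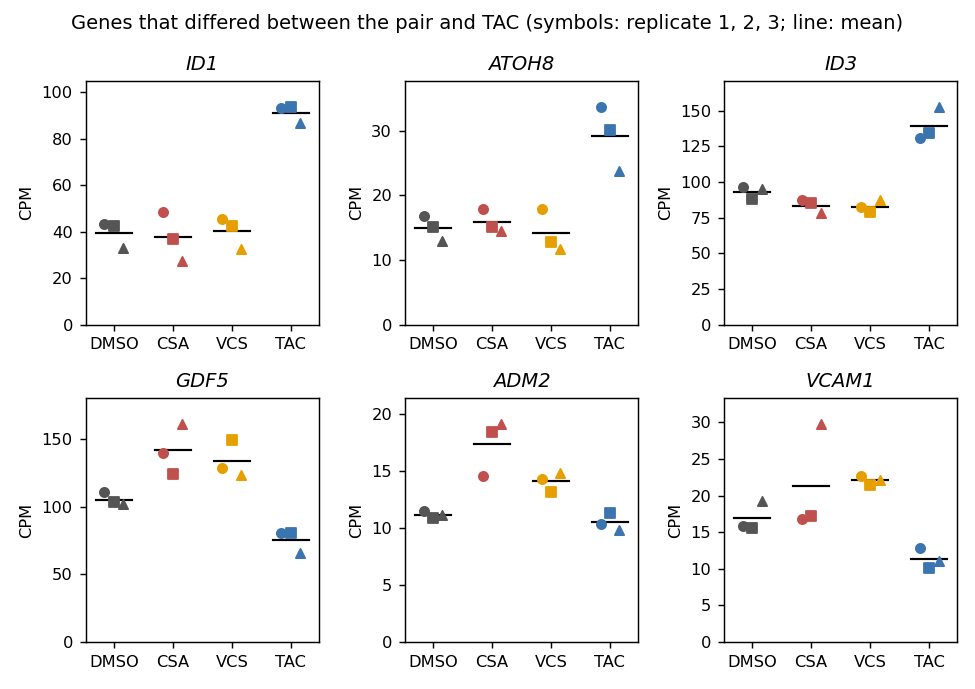
CPM (y axes, linear from 0) of 6 genes that passed between the pair and TAC. Symbols are libraries by replicate number and lines are means of 3. The ID1, ATOH8 and ID3 values of TAC (86.7 to 93.5 CPM for ID1) exceed all others, and the TAC values of GDF5 and VCAM1 lie below all others.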

How the data were processed

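RNA of 12 samples was measured by polyA RNA sequencing, with 3 samples in each of 4 groups. Per the submitters' processing notes the authors used Salmon and the GRCh38 build, and the deposited table holds expected counts per gene, rounded to whole numbers. Whether the molecular identifiers were collapsed is not stated. Of 62262 genes, 22339 were at 0 in every library, and 19784 passed filterByExpr (minimum count 10) and were tested. Library sizes were scaled by TMM, and edgeR 4.0.16 (R 4.3.3) fitted group plus replicate number over all 12 libraries with 6 residual degrees of freedom. Adjusted p-values are Benjamini-Hochberg values over all tested genes. DESeq2 1.42.0 was an alternative, and the scripts were tested on simulated data. Names came from GENCODE 29.

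Named genes were the drug targets and podocyte genes, the genes with the smallest p among those whose 6 pair libraries lay apart from DMSO (10 in each direction), the 3 members of each list with the smallest p, and up to 5 per direction that passed in the other contrasts (the 3 smallest p where fewer passed), with a mean of at least 1 log2 CPM except for list members. Genes outside this rule, such as LTF, H2BC26, ENSG00000196656 and members given as examples of role groups, were named after their values were seen. The pair as a subject and the 35 gene lists were chosen with earlier results of these data known. Same-numbered samples deviated together with correlations from 0.007 to 0.532, not all above 0.1, and the number was kept as a block. Some results are not reported here.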

Additional observations from a re-analysis of the deposited data

Results flagged for a closer look

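In 4 of 85 genes checked (4.71%), 1 library stood far from the other 5 of the pair by Dixon's criterion, which flags about 1 in 20 groups by chance, so the share is near that of chance. DDX60L was at 57.7 CPM in CSA replicate 1, PPIA at 864 CPM in CSA replicate 3, LSS, the lanosterol synthase of the sterol pathway, at 62.6 CPM in VCS replicate 3, and PAX8, a kidney transcription factor, at 253 CPM in VCS replicate 2.

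The response to CSA and to VCS differed, by edgeR's test of the difference itself, in 6 genes. The log2 difference of CSA from VCS was -4.02 for SFTPA1, -2.79 for KRT5, -2.55 for SFTPA2, -3.45 for KRT14 and -1.84 for LTF. It was 11.02 for ENSG00000196656, a fitted value that depends on the prior count because all VCS libraries were at 0.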

How the results depend on the processing

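Fits without the replicate block gave 384 higher and 397 lower genes at an unadjusted p under 0.05 for the pair against DMSO, 20 higher ATF4, 10 lower interferon and 1 higher adhesion gene, and 2 and 9 genes passed for CSA against VCS and the pair against TAC. Same-numbered samples had correlations from 0.007 to 0.532 (median 0.187, 18 pairs) and others from -0.427 to 0.263 (median -0.086, 36 pairs). The labels do not say what a shared number stands for. Genes passed for the pair against DMSO were 1 with only CSA, VCS and DMSO fitted, 1 with RLE size factors, 2 with robust estimation, 86 in DESeq2, 890 with no filter (and 1900 lower at an unadjusted p under 0.05) and 19 without the 4 libraries numbered 3. For CSA against VCS the counts were 2 with only CSA, VCS and DMSO, 170 with no filter, 19 in DESeq2 and 15 without the libraries numbered 3, and for the pair against TAC 676 with no filter and 329 in DESeq2. The setting without the libraries numbered 3 was chosen after seeing the data. Genes apart from DMSO were 1309 higher and 1576 lower without the libraries numbered 3. With no filter, 39923 genes were fitted and 868 of the 890 were also in the filtered table. The median prior degrees of freedom, the weight edgeR gives to the spread common to all genes, was infinite without the filter and 6.04 with it. The 2 fits thus estimated the spread differently, and the cause of the larger count was not tested.

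With 1 library left out, the pair against DMSO passed 0 to 8 genes, with 440 to 1986 higher and 500 to 1847 lower at an unadjusted p under 0.05, 20 to 34 higher ATF4, 13 to 29 lower interferon and 3 to 20 higher adhesion genes. CSA against VCS passed 1 to 13, the pair against TAC 10 to 264, and 213 to 937 higher and 248 to 953 lower genes lay apart. The sign turned for PPIB (-0.001 with RLE factors and in DESeq2, -0.065 without the libraries numbered 3, -0.047 to 0.038 with 1 library left out), PPP3R1 (-0.016 to 0.085), RCAN1 (-0.023 to 0.045) and NFATC1 (-0.046 to 0.246), each near 0 to begin with. Of 2135 values of 113 named gene results, 1952 kept direction and call, 69 lost and 103 gained a call, and 11 turned. With 3 libraries a group, small differences in genes of low count may be missed.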

Other observations

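Liver marker genes varied between libraries within the CSA and VCS groups. ALB, serum albumin, was at 144, 126 and 167 CPM in DMSO, at 119, 266 and 223 CPM in CSA, at 260, 113 and 118 CPM in VCS and at 280, 256 and 234 CPM in TAC. CSA replicate 1 and VCS replicates 2 and 3 were thus the low libraries of the pair, and the other 3 overlapped TAC or lay just below it. The 10 liver markers summed to between 217 and 276 CPM in DMSO and between 361 and 416 CPM in TAC. In the pair their sum was between 210 and 408 CPM.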
